A study of Mus musculus with 20 samples.

Results

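The transcript levels of resting mouse gastrocnemius, the large calf muscle, are described from the 10 saline-treated samples of a study of 20 samples. The other 10 samples, from mice given an antibody against myostatin, are not used here. The mice behind these 10 samples received saline by injection into the peritoneum on days 1 and 3 and were killed with carbon dioxide on day 5, and the muscle was frozen at once. Strain, age and sex are not given in the labels, and the labels do not say that each sample is a mouse of its own. All 10 samples were chosen by their title. For each gene, the single-gene probe set (a group of short array probes for a transcript) with the highest mean log2 signal over these samples was used, which gave 18193 genes. Statements about spread concern the 9572 genes with a mean log2 signal of at least 7, a signal of 128.

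Gastrocnemius in mice is built mostly of fast-twitch fibres, which contract quickly and draw on glycogen and glycolysis, with a smaller share of slow-twitch fibres that rely on oxygen. Each fibre type has its own set of sarcomere proteins and calcium pumps. A piece of whole muscle also holds tendon, fat, nerve, vessels, blood and immune cells, so a transcript of those cells can differ between samples because more or fewer such cells were taken. In bulk tissue such a difference and a difference in RNA per cell cannot be told apart. Injured fibres are replaced through satellite cells, which divide, fuse and for a time make embryonic forms of the muscle proteins while macrophages clear debris and fibroblasts lay down matrix.

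The arrays fell into 2 sets. The ratio of the 3′ to the 5′ control probe sets for beta-actin, a measure of how evenly a transcript is represented along its length, was 1.69 to 1.84 (log2) in saline replicates 1 to 6 and 0.476 to 0.643 in replicates 7 to 10. The same ratio for Gapdh lay between 0.181 and 0.414 in all 10. The labels number the arrays in the order of the replicates and give no batch. Every array had a trimmed mean signal of 500.0, while the median signal ran from 43.1 to 77.1 and was highest in replicate 7. Replicate 7 also stood apart in single genes: it carried 19.1% of the variance over all 9572 genes, against 5.25 to 12.6% for each other sample. Many of the results that rest on replicate 7 or on the array sets are therefore given with and without them.

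The tissue markers were those of skeletal muscle. The brightest gene of all was Mylpf, the regulatory light chain of fast muscle myosin. The Y-linked genes Eif2s3y (signal 763 to 3422) and Kdm5d (152 to 356) were present in every sample, and Xist, the transcript of the silenced X chromosome, was at 2 to 55.

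The 25 genes with the brightest probe sets were sarcomere, energy and housekeeping genes, and they were among the steadiest. Their geometric mean signals ran from 20425 to 27037 and their SDs from 0.093 to 0.266 (log2, n = 10), below the median SD of all 9572 genes, 0.384. A rank in brightness describes probe set signals and not amounts of RNA, since probe sets bind with different strength. Of the 25, 9 belonged to the list of 22 fast fibre genes and 0 to the list of slow fibre genes. They were Mylpf and Myl1 (fast myosin light chains), Tnni2, Tnnt3 and Tnnc2 (the fast troponin complex, which senses calcium), Actn3 (the Z-disc actinin of fast fibres), Atp2a1 (the fast calcium pump), Myh4 (the heavy chain of the fastest fibres) and Mybpc2 (fast myosin-binding protein C).

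Mylpf signals had a lowest value of 22783, a median of 27809 and a highest value of 29641. Replicates 7 and 10 were the low samples, and the other 8 lay close together. Acta1, skeletal alpha-actin, had a lowest signal of 17246, a median of 21294 and a highest of 22678, and Tpm2, beta-tropomyosin, ran from 19148 to 25213. Energy genes among the 25 were Ldha (lactate dehydrogenase), Aldoa (a glycolytic aldolase), Slc25a4 (the mitochondrial exchanger of ADP and ATP), Vdac1 (the outer membrane channel), Ndufc1 and Ndufb11 (subunits of respiratory complex I), Cox6b1 (a subunit of cytochrome oxidase) and Fabp3 (the fatty acid binding protein of muscle). Cox6b1 had the largest SD of the 25, from 14575 in replicate 7 to 24864 in replicate 3. Lgals1, the sugar-binding galectin-1, had the smallest, from 23327 to 28284. The remaining genes were Selenow (a selenoprotein abundant in muscle), Tuba4a (an alpha-tubulin), Rps20 (a ribosomal protein), Pebp1 (an inhibitor of Raf kinase) and Fth1 (the heavy chain of the iron store ferritin). In all 25 genes the lowest sample was replicate 7 or replicate 10. The median SD of the list of 22 fast genes was 0.150, and it was 0.069 with quantile normalization, which gives the brightest ranks of every array equal values, and 0.373 with array medians centred.

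**Figure D1:**
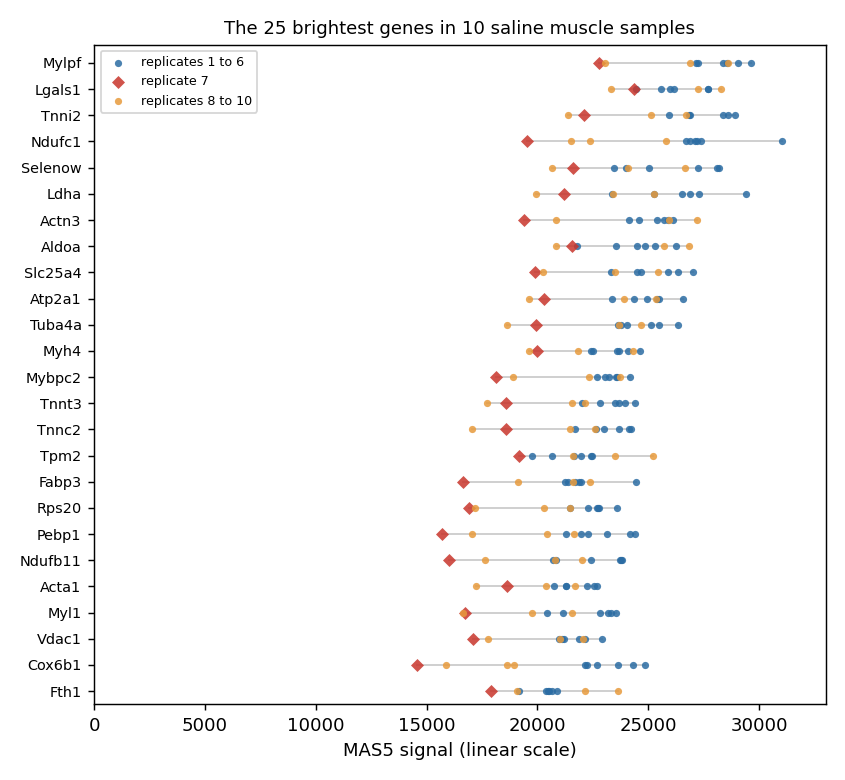
The 25 brightest genes in the 10 saline samples. Each point is the MAS5 signal (linear axis) of 1 sample, blue for replicates 1 to 6, a red diamond for replicate 7 and orange for replicates 8 to 10, and the grey line joins the lowest and highest sample. The lowest point of every gene is replicate 7 or replicate 10.

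Promoters are shown for Acta1, among the brightest genes, and for Chrna1 and Chrng, acetylcholine receptor subunits that were high together in replicate 7. They are RefSeq sequences on build GRCm38.p6, from 250 bases before to 50 bases after the start of the gene, and both strands were searched for CAGCTG (a form of the E-box that myogenic factors bind), for TATAAA, and for the CArG box and the MEF2 site, each known from muscle promoters. The motif letters are in capitals. Acta1 lies at chr8:123894726-123895025 (minus strand), Chrna1 at chr2:73580289-73580588 (minus strand) and Chrng at chr1:87205561-87205860 (plus strand).
Acta1: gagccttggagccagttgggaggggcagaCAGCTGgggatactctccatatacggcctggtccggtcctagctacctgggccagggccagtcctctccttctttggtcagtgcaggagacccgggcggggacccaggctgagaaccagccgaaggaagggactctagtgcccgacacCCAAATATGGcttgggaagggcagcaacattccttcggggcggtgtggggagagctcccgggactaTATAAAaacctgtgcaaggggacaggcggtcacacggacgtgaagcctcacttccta
Chrna1: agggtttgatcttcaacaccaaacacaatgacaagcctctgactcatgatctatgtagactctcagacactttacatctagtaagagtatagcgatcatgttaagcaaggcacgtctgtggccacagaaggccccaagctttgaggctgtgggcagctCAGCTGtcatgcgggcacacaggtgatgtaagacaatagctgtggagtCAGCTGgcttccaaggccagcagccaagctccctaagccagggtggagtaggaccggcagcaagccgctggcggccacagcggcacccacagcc
Chrng: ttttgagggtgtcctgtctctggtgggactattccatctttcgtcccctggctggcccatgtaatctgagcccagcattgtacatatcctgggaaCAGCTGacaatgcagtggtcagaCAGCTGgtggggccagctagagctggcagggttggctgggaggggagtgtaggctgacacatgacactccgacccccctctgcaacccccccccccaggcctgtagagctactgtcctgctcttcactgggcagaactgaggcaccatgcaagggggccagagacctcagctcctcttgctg

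Acta1 held 1 CAGCTG, 1 CArG box and 1 TATAAA in this window, and Chrna1 and Chrng held 2 CAGCTG each, with no overlap between motifs. CAGCTG occurs in 16.3% of all 32851 promoters of this length in the table, TATAAA in 13.6%, the CArG box in 1.63% and the MEF2 site in 3.19%. Among the 20 of the 25 brightest genes that had a promoter in the table, 6 held CAGCTG, 4 TATAAA, 3 the CArG box and 1 the MEF2 site. Chrna1 and Chrng belong to the list of denervation and regeneration genes, of which 15 had a promoter. Of these 15, 4 held CAGCTG, and those of Myog and Myh3 held 0. Such matches describe letters in a window and not bound sites.

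The median SD over the 9572 genes was 0.384 (log2), with quartiles of 0.272 and 0.530 and a range from 0.051 to 1.99. An SD of at least 0.5 was reached by 2812 genes (29.4%) and an SD of at least 1 by 136 (1.42%). Spread fell with brightness, from a median SD of 0.485 at a mean log2 signal of 7 to 8 to 0.208 at 13 and above. Of the 136 genes, replicate 7 was the highest sample in 62 and the lowest in 5, and in 34 the values of replicates 1 to 6 and 7 to 10 did not overlap. Over all 9572 genes, replicate 7 was the highest in 18.6% and the lowest in 22.6%. The array sets did not overlap in 24.7% of all 9572 genes, a share close to that among the 136. Without replicate 7, 93 of the 9572 genes had an SD of at least 1, among them 76 of the 136, and 89 genes had one when the probe sets and the limit on mean signal were also set without it. With each array set centred on its own mean, 62 genes did. A second probe set with a mean log2 of at least 7 measured 28 of the 136 genes, and it followed the first with a median r of 0.888 across samples, against 0.576 for all 3705 genes with a second probe set. That r rose with the SD, and it was 0.759 for the 927 of the 3705 genes with an SD of at least 0.5.

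**Figure D2:**
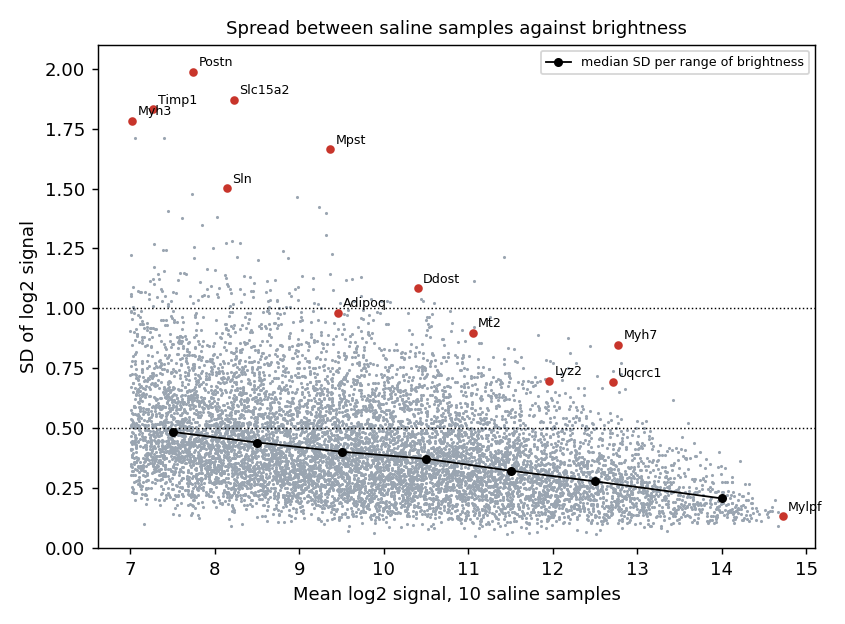
SD of log2 signal over the 10 saline samples (vertical axis) against mean log2 signal (horizontal axis) for 9572 genes, 1 grey point each, with the median SD of each range of brightness joined in black and dotted lines at 0.5 and 1. The SD falls from a median of 0.485 among the dimmest genes to 0.208 among the brightest, and named genes are marked in red.

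The 25 most variable genes fell into a few patterns, according to which samples were high. The largest group were matrix, regeneration and immune genes high in replicate 7: Postn (periostin, a matrix protein of healing tissue, SD 1.99), Timp1 (an inhibitor of matrix proteases, 1.83), Myh3 (embryonic myosin heavy chain, 1.78), Tnc (tenascin-C, 1.71), Apoe (a lipid carrier made by macrophages, 1.42), Dclk1 (a kinase of the doublecortin family, 1.38), Wfdc17 (a small secreted protein of the whey acidic family, 1.31), Sfrp2 (a secreted Wnt antagonist, 1.27), Ccl8 (a chemokine, 1.25) and Ms4a6d (a membrane protein of macrophages, 1.24). Of these, Apoe was also higher in replicates 7 to 10 as a set (log2 difference 2.25), with no overlap with replicates 1 to 6. Mpst (an enzyme that makes hydrogen sulfide, SD 1.66), Gpr108 (1.28) and Mcrs1 (1.25) were higher in replicates 7 to 10. Arntl2, a relative of the clock gene Bmal1 (1.27), and Slc38a6, an amino acid transporter (1.35), were lower in replicates 8 to 10. Igkv8-30 and Igk, immunoglobulin light chain genes of B cells and plasma cells, were high in replicate 9 and next in replicate 2. Igk read 2023 in replicate 9, 957 in replicate 2 and 91 to 326 in the other 8.

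Slc15a2, a peptide transporter, had the second largest SD (1.87), with a lowest signal of 46, a median of 328 and a highest of 2258 in replicate 4. Its other probe sets were dim and did not follow it (r = -0.038 and 0.448). Tarbp2, a cofactor of microRNA processing (SD 1.40), was lowest in replicate 7 at 78 against 263 to 2296 in the others, and its second probe set, at 474 in replicate 7 against 278 to 683, did not share that low value (r = 0.110). Ager, a receptor for glycated proteins (SD 1.71), ran from 10 in replicate 9 to 499 in replicate 1, and Cyp26b1, an enzyme that degrades retinoic acid (1.41), from 19 in replicate 3 to 494 in replicate 9. Arhgap5, an activator of small GTPases (SD 1.46), was measured by 2 further probe sets above the limit, which followed it at r = 0.926 and 0.940. Its signal was lowest in replicate 2, at 63, and highest in replicate 7, at 1699.

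The slow fibre list had a larger spread than the fast fibre list. The median SD was 0.528 over the 15 slow genes above the limit and 0.150 over the 22 fast genes, against 0.384 for all genes. The median correlation between pairs of members was 0.556 in the slow list and 0.794 in the fast list, or 0.530 and 0.708 without replicate 7. Myh7, the slow myosin heavy chain, had a lowest signal of 2772, a median of 7695 and a highest of 16163. Replicates 4, 5 and 6 were the high samples (16163, 11653 and 13438), replicates 7, 9 and 10 the low ones (2772, 3510 and 3927), and replicates 1, 2, 3 and 8 lay between (6130 to 8132). Replicates 4, 5 and 6 were also the 3 highest samples for Myl2 and Myl3 (slow myosin light chains) and for Atp2a2 (the slow calcium pump, 12698 to 15162 against 5446 to 9858). Tnnt1, the slow troponin T of the same list, departed from this. Its log2 signal was 13.20 in replicate 8, against 13.36, 12.92 and 13.05 in replicates 4, 5 and 6. Sln, a small peptide that inhibits the calcium pump, had the largest SD of the list (1.501), with 1126, 800 and 840 in replicates 4, 5 and 6, 610 in replicate 2 and 49 to 283 in the others. Mb, the oxygen store myoglobin, had the smallest (0.156, signal 14162 to 20550). The slow list score, the mean over its genes of the deviation from each gene's own mean, was 0.39 to 0.65 in replicates 4, 5 and 6 and -0.46 to 0.03 in the other 7, and the same 3 samples were highest with array medians centred (0.43 to 0.88) and with quantile normalization (0.38 to 0.60).

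**Figure D3:**
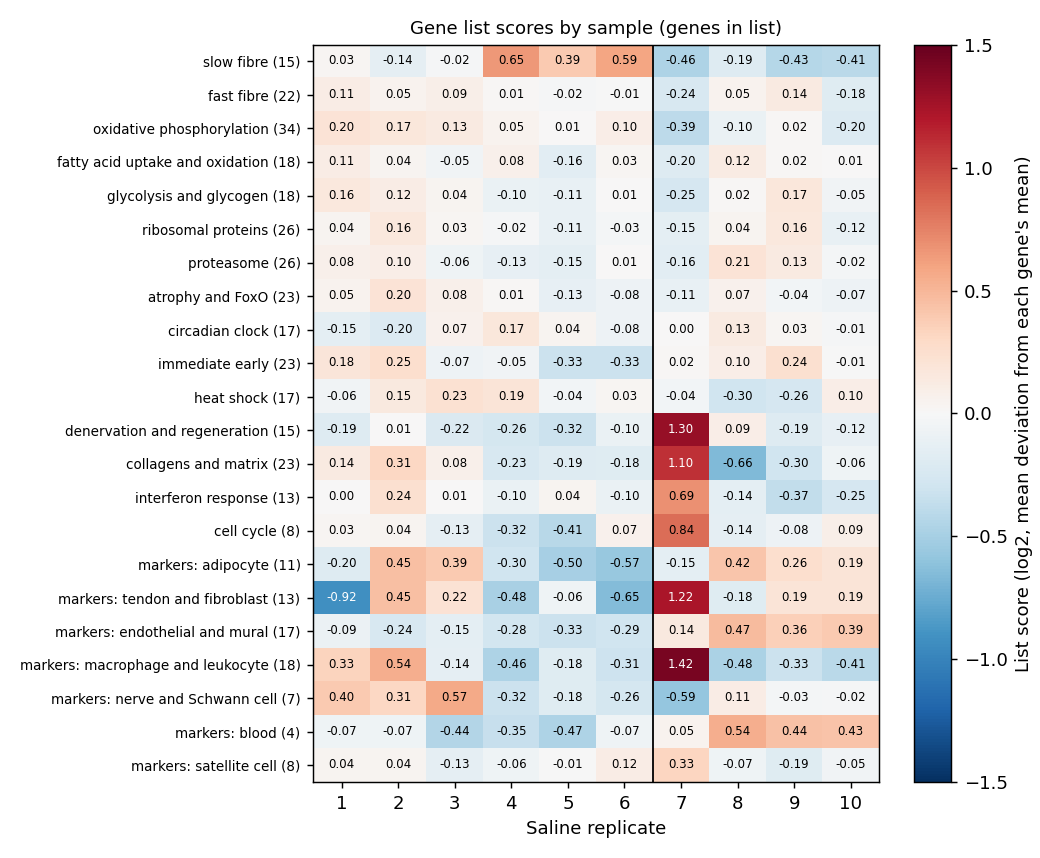
Score of each gene list in each saline sample, as the mean deviation of its genes from their own mean (log2), with the number of genes above the limit in brackets. The vertical line parts replicates 1 to 6 from 7 to 10. Replicate 7 holds the highest scores of the plot (1.42 for macrophage and leukocyte markers, 1.30 for denervation and regeneration), and the slow fibre score is highest in replicates 4, 5 and 6.

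Replicate 7 had high levels of regeneration, cell cycle, macrophage and matrix genes. Over all genes above the limit it was the highest sample in 18.6% and the lowest in 22.6%. As deposited, 967 genes (10.1%) lay at least 1 log2 unit above the median of the other 9, while 374 (3.91%) lay at least 1 unit below it. These counts depended on the scaling. They were 255 (2.66%) above and 2241 (23.4%) below with array medians centred, and 641 (6.70%) and 859 (8.97%) with quantile normalization. Some genes passed the limit on mean signal only because of replicate 7, among them 13 of the 136 genes with an SD of at least 1, so the lists are counted here over all measured genes, dim ones included. On that count it was the highest sample in 14 of 19 denervation and regeneration genes, 17 of 22 cell cycle genes, 14 of 20 macrophage and leukocyte markers, 15 of 23 collagen and matrix genes, 13 of 20 interferon response genes and 10 of 14 tendon and fibroblast markers. It was the highest in 0 of 15 adipocyte markers and 0 of 17 endothelial and mural markers. The 18.6% above covers only genes above the limit, and the matching share with dim genes included is not given here. Replicate 7 had the highest median signal of the arrays, so dim genes may be highest there more often. With array medians centred, which lowers replicate 7 by a median of 0.61 over all genes, the list medians of replicate 7 over the others stayed positive for denervation and regeneration (1.24), cell cycle (1.48), macrophages (1.10), collagens (0.38), interferon response (0.36) and tendon (0.35).

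Genes of embryonic or denervated muscle fibres were high in replicate 7. Myh3 was at 3878 in replicate 7 and at 45 to 123 in the other 9. Myog, the factor that drives fusion and late differentiation, was at 2132 against 152 to 532. Chrng, the acetylcholine receptor subunit of fetal muscle, was at 505 against 2 to 27, and Chrna1, the alpha subunit, at 2574 against 407 to 1662. Ncam1, an adhesion molecule of regenerating and denervated fibres, was at 2904 against 428 to 918, and its next probe set was at 1601 against 278 to 540. Myl4, the embryonic light chain, was at 5448 against 1027 to 1922. In each of these genes the value of replicate 7 lay outside the range of the others. Myog and Chrna1 also differed between the array sets, with all of replicates 7 to 10 above replicates 1 to 6. Their log2 differences were 1.41 and 1.40 (limma adjusted p = 0.019 and 0.0017).

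Dividing cells and immune cells followed the same pattern. Mki67, a proliferation marker, was at 494 in replicate 7 and 37 to 74 in the others, and Cdk1, the mitotic kinase, at 624 against 37 to 96. Lyz2, the lysozyme of macrophages, was at 13131 against 2501 to 5568. Mrc1, the mannose receptor of resident macrophages, was at 4055 against 502 to 934, Cd68 at 2025 against 183 to 545 and Adgre1 (F4/80) at 1591 against 85 to 299. Matrix genes were high in replicate 7 as well. Postn was at 8498 against 61 to 282, Tnc at 2971 against 45 to 270, Timp1 at 2430 against 19 to 350, and Lox, which crosslinks collagen, at 4248 against 227 to 599. Fn1, fibronectin, was at 7610 against 1936 to 3459. Satellite cell markers as a list did not share the pattern: replicate 7 was the highest in 2 of 10, with a median log2 difference of 0.17 from the others. Among them, Vcam1 was at 848 against 152 to 242, while Myf5 at 287 lay inside the range of the others (77 to 417).

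Oxidative phosphorylation genes were lowest in replicate 7 in 28 of 34 cases, with a median difference from the others of -0.46 against -0.02 for all genes. The size of that gap depended on the scaling, at -0.14 against -0.12 with quantile normalization and -1.01 against -0.61 with array medians centred. Other probe sets of the same genes mostly shared the high values of replicate 7. Of the 253 genes that lay at least 1 unit above the others there and had a second probe set above the limit, the second was also above in 238 (94.1%), with a median difference of 1.19 against 1.30 for the first. The same share was 90.0% for replicate 5, 87.5% for replicate 4 and 71.4 to 85.7% for the other replicates. Replicate 7 enters the limit for both probe sets, so its share is given as a description. The array median and the tissue markers of replicate 7 moved with the genes that were high there. The beta-actin control ratio was 0.476 in replicate 7 and 0.643, 0.588 and 0.635 in replicates 8, 9 and 10. That ratio was low in all of replicates 7 to 10, and replicate 7 had the lowest of the 10 arrays. The part of the array median, the control ratio and the tissue markers in the differences was not tested.

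**Figure D4:**
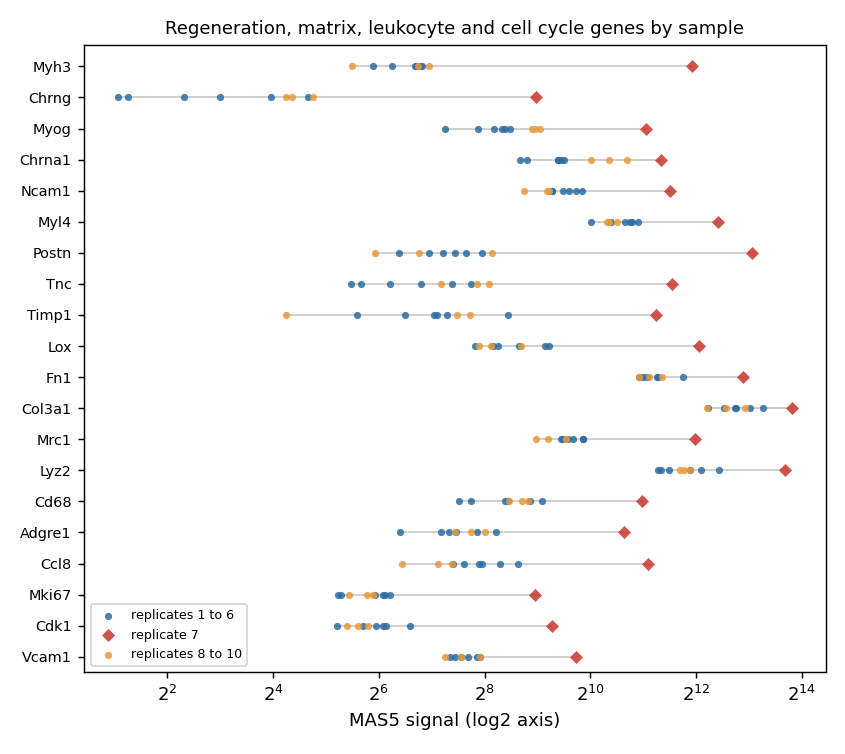
MAS5 signal (log2 axis) of 20 regeneration, matrix, leukocyte and cell cycle genes in each saline sample. Replicate 7, the red diamond, is the highest sample for every gene drawn, for example 8498 against at most 282 for Postn. The genes drawn were chosen for this pattern.

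Markers of other tissues varied between the other samples too. Adipoq, the fat cell hormone adiponectin, had a lowest signal of 216, a median of 783 and a highest of 1508. Replicates 2, 3, 8 and 9 were high (1040 to 1508) and replicates 4, 5 and 6 low (216 to 470). Retn, resistin, was high in replicates 2 and 3 only (1410 and 1219, against 182 to 456 in the others), and Car3, listed as an adipocyte gene but also abundant in muscle fibres, had an SD of 0.116. The tendon and fibroblast score was lowest in replicates 1, 6 and 4 (-0.92, -0.65 and -0.48). Chad, chondroadherin, was at 112 and 334 in replicates 1 and 6 against 458 to 1525 in the others, Comp, a cartilage matrix protein, at 166 and 312 against 440 to 1262, and Tnmd, tenomodulin, at 346 and 293 against 524 to 1363. Fmod, fibromodulin, was lowest in replicate 1 (8891), while replicate 6 (11301) lay inside the range of the others (9201 to 19426). Sox10, the factor of Schwann cell identity, was at 359 to 540 in replicates 1 to 3, 356 in replicate 5 and 86 to 266 in the others, and the nerve score was highest in replicates 1 to 3 (0.31 to 0.57). S100a9, a neutrophil protein, was at 1022 in replicate 1 and 712 in replicate 2 against 73 to 473. Replicates 1 and 2 had the highest macrophage and leukocyte scores after replicate 7 (0.33 and 0.54).

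Rapidly induced genes also differed between samples, and the median correlation between pairs of the 23 immediate early genes was 0.110, or 0.266 without replicate 7. Fosb, an immediate early factor, had a lowest signal of 66, a median of 263 and a highest of 898, and was high in replicates 1, 2, 8 and 9. Fos ran from 3053 in replicate 7 to 9992 in replicate 2, and Egr1 from 3557 to 8992. Klf2, a factor induced by flow in endothelium, was at 1411 to 1574 in replicates 8 to 10 and 243 to 883 in the others. Among heat shock genes, Hsp90aa1 ran from 554 to 3296, highest in replicate 7, while Hsph1 had an SD of 0.101. Mt2, a metal-binding metallothionein, was at 8854 in replicate 7 against 1011 to 2998, but Mt1 was at 3549 there against 1609 to 6115. The ubiquitin ligases of atrophy, Fbxo32 and Trim63, had SDs of 0.369 and 0.250.

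Lists of basic metabolism had small spreads. The median SD was 0.179 for glycolysis and glycogen (18 genes), 0.185 for ribosomal proteins (26), 0.234 for oxidative phosphorylation (34), 0.255 for the proteasome (26) and 0.279 for fatty acid uptake and oxidation (18). These 5 lists contain mostly bright genes, whose SD is smaller in general. The largest median SDs were those of tendon and fibroblast markers (0.800 over 13 genes), macrophage and leukocyte markers (0.752 over 18) and denervation and regeneration genes (0.682 over 15), and without replicate 7 they were 0.560, 0.511 and 0.492. Within the basic lists a few members stood out. Angptl4, an inhibitor of lipoprotein lipase, had an SD of 1.24, Uqcrc1, a core subunit of complex III, 0.692, and Psmd4, a ubiquitin receptor of the proteasome, 0.750, each highest in replicates 7 to 10.

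The array sets accounted for much of the spread. Between-set differences made up 39.2% of the variance over the 9572 genes. In limma, 3234 genes (33.8%) differed between replicates 7 to 10 and 1 to 6 at an adjusted p under 0.05, of which 1481 (15.5%) were higher and 1753 (18.3%) lower in replicates 7 to 10. In 2360 genes (24.7%) the sets did not overlap. The split depended on scaling: with array medians centred 395 were higher and 3800 lower, since this setting moved the median difference of all genes from -0.03 to -0.44. Quantile normalization moved it to -0.10.

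The clearest differences were in genes of unrelated roles. Gatad1, a GATA zinc finger protein of chromatin, was at 9617 to 10634 in replicates 1 to 6 but 3350 to 3913 in replicates 7 to 10 (log2 difference -1.42, SE 0.075, limma adjusted p = 2.3e-06). Hars, the histidyl-tRNA synthetase, was at 7825 to 9351 against 2529 to 3100. Phkg1, the catalytic subunit of muscle phosphorylase kinase, was at 15767 to 17454 against 7295 to 8851, and Ilkap, a phosphatase, went the other way, at 398 to 586 against 1786 to 2374 (log2 difference 2.16, SE 0.15, limma adjusted p = 1.3e-05). The other 6 genes with the smallest p, Anapc13, Commd9, Sfxn5, Emc4, Sptan1 and Mrpl39, were all lower in replicates 7 to 10, by 1.28 to 1.83 on the log2 scale. In none of these 10 genes did the sets overlap.

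By list, endothelial and mural markers had 9 of 17 genes called higher in replicates 7 to 10 and 1 lower. Over all 9572 genes, 15.5% were called higher and 18.3% lower. Pecam1, an endothelial adhesion molecule, was at 224 to 289 in replicates 1 to 6 but 783 to 1067 in replicates 7 to 10 (log2 difference 1.78, SE 0.15, limma adjusted p = 2.5e-05). Eng, a TGF-beta co-receptor of vessels, was at 173 to 300 against 701 to 1006, but its other probe set differed by -0.06. Of the 4 blood genes above the limit, 3 were called higher, and Hba-a2, an alpha-globin, was at 2023 to 2359 against 4223 to 5032. Slow fibre genes had 7 of 15 called lower and 0 higher, and oxidative phosphorylation genes 20 of 34 lower and 1 higher. The oxidative phosphorylation median was -0.31, and it was -0.10 with quantile normalization, the same as that of all genes, and -0.72 with array medians centred, where that of all genes was -0.44. The slow fibre median was -0.40, -0.17 and -0.81 in the same order, and the endothelial median 0.53, 0.40 and 0.12. In circadian clock genes, 2 of 17 were called higher and 2 lower, in each direction a smaller share than over all genes. Dbp, a clock output factor, was at 5338 to 7300 against 2303 to 3951 with its brightest probe set (log2 difference -1.03, SE 0.15, limma adjusted p = 0.00045), but another of its probe sets differed by 0.45. Per3, a period gene, differed by -1.68, and its other probe sets above the limit by 0.25 and -0.20.

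Such disagreement was common between the array sets. Of the 3234 genes called, 1334 had a second probe set above the limit, and in 802 (60.1%) it differed in the same direction, with a median of 0.15 in the direction of the first against a median size of 0.68 for the first. This share is given beside the 94.1% of replicate 7 as a description, since the genes were chosen by different rules. The control ratio for beta-actin moved with the array sets, and its part in these differences was not tested.

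Genes that vary together were found by clustering the 300 genes with the largest SD on their correlation over the 10 samples, joining genes down to an average r of 0.7. This gave 5 groups of at least 8 genes, with 261 of the 300 genes. Group 1 (86 genes) was higher in replicates 7 to 10, by its mean deviations of 0.84 to 1.21 against -1.05 to -0.27 in replicates 1 to 6. Its leading genes were Fdps (a farnesyl diphosphate synthase of the cholesterol pathway), Ddost (a subunit of the enzyme that glycosylates proteins), Eif3d (a translation initiation factor), Adprhl2 (a hydrolase of ADP-ribose), Lap3 (an aminopeptidase), Arhgap10 (an activator of small GTPases), Gnb2 (a G protein subunit) and Mpst. Ddost was at 590 to 1189 in replicates 1 to 6 but 2686 to 3471 in replicates 7 to 10. Group 5 (9 genes) ran the opposite way and was led by Rexo4, Sfxn5, Rfc2 and Rabep2. Rexo4, an exonuclease, was at 2702 to 3338 in replicates 1 to 6 but 647 to 1090 in replicates 7 to 10.

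Groups 2 and 4 crossed the array sets. Group 2 (80 genes) was high in replicates 4, 5, 7 and 10 (0.46 to 1.29) and lowest in replicate 2 (-1.497). It was led by Lin7c (a scaffold of cell junctions), Trim23 (a ubiquitin ligase), Shprh (a DNA repair helicase), Zbtb41 (a zinc finger protein), Mob1b (an activator of Hippo pathway kinases), Odr4, Pgm2l1 and Eea1 (an endosome tether). Lin7c had a lowest signal of 140, a median of 378 and a highest of 1154. Group 4 (40 genes) was high in replicates 3, 4, 5 and 7 (0.48 to 1.19) and low in replicates 8 and 9 (-1.24 and -1.42), and was led by Gimap8, Rasa2, Ppp1r12a, Mtx3, Ppp4r3b and the splicing genes Prpf4b and Prpf39. Prpf4b, a kinase of the spliceosome, ran from 409 in replicate 9 to 3434 in replicate 5. Genes of groups 2 and 4 were long, with a median gene span of 44.8 and 47.8 kb against 24.1 kb for all genes and 12.3 kb for group 1. Promoter GC content was 61.3% (median) both for group 4 and for all genes and 60.7% for group 1, and the check is void for groups 2, 3 and 5, in which only 78.8%, 65.2% and 77.8% of the genes had a promoter in the table.

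Group 3 (46 genes) was the replicate 7 group, at 2.80 in that sample and -0.63 to 0.06 in the others. It was led by Fcgr2b (an inhibitory antibody receptor), Ms4a6d, Fyb (an adaptor of immune cells), Ms4a6b, Myh3, Tubb2b (a beta-tubulin), Postn and Mpeg1 (perforin-2 of macrophages). Its median correlation between gene pairs was 0.794 with all samples and 0.127 without replicate 7. Clustering without replicate 7, a setting chosen after the data were seen, left 4 groups of 120, 76, 50 and 18 genes. They shared 69, 57, 29 and 7 genes with groups 1, 2, 4 and 5, and none was closest to group 3. With the probe sets also chosen anew without replicate 7, there were 5 groups.

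Relations between genes or list scores were named from textbook roles, and 13 of them are reported. In Arntl with Dbp and Myog with Chrna1 the array sets did not overlap in either gene, so these were examined in replicates 1 to 6 only. The p-values are two-sided and come from permutation tests, adjusted over the 11 relations tested across all 10 samples and, with exact tests, over the 13 tested in replicates 1 to 6. Fos and Egr1, partners in the immediate early response, rose together (r = 0.790, permutation p = 0.0032, adjusted 0.020; rho = 0.855, adjusted permutation p = 0.035). The relation was r = 0.927 in replicates 1 to 6 (adjusted exact p = 0.018), 0.730 without the 2 farthest samples and 0.715 without replicate 7. Myh2 and Myh4, heavy chains of fast fibres, had r = 0.817 (adjusted permutation p = 0.020; rho = 0.733, adjusted 0.113), 0.775 without the 2 farthest samples and 0.662 in replicates 1 to 6 (adjusted exact p = 0.190). Both calls were lost without replicate 1, 4 or 7 (adjusted permutation p = 0.057 to 0.085) and with quantile normalization, where Myh2 and Myh4 had r = 0.236. With the mean of all probe sets Myh2 and Myh4 reversed to -0.282.

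Several relations were strong in replicates 1 to 6 and weak over all samples. Myh7 and Tnnt1, the slow troponin T, had r = 0.613 over 10 samples (adjusted permutation p = 0.130; rho = 0.527, adjusted 0.192; 0.724 without the 2 farthest) and 0.989 in replicates 1 to 6 (adjusted exact p = 0.024; rho = 0.943, adjusted 0.054). With the array sets centred it was 0.932. Tnmd and Fmod, genes of tendon, had r = 0.415 (adjusted permutation p = 0.319) and 0.915 in replicates 1 to 6 (adjusted exact p = 0.0497). Mt1 and Mt2 had r = -0.039 (adjusted permutation p = 0.922) and 0.844 in replicates 1 to 6 (adjusted exact p = 0.105), with 0.900 after centring. Arntl, which encodes the clock activator Bmal1, and Dbp ran opposite to each other in replicates 1 to 6 (r = -0.980, adjusted exact p = 0.018; rho = -1, adjusted 0.018). That relation was -0.402 with the mean of all probe sets, -0.760 without probe sets marked as shared between transcripts and 0.033 with array medians centred. Myog and Chrna1 had r = 0.450 in replicates 1 to 6 (adjusted exact p = 0.442).

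The remaining relations missed the threshold over all 10 samples. Fbxo32 and Trim63 had r = 0.727 (adjusted permutation p = 0.063), which fell to 0.268 without the 2 farthest samples, replicates 6 and 8. Irf7 and Ifit3, interferon response genes, had r = 0.555 (adjusted permutation p = 0.148) and -0.204 without replicates 6 and 7. Irf7 lay below the limit on mean signal, at 4.82 to 7.24 (log2). The adipocyte score fell as the slow fibre score rose (r = -0.691, adjusted permutation p = 0.089; -0.836 in replicates 1 to 6, adjusted exact p = 0.105). It had r = 0.598 with the nerve score (adjusted permutation p = 0.130) and 0.396 with the tendon score (adjusted 0.321). The slow and fast scores had r = 0.242 (adjusted permutation p = 0.560) and -0.757 in replicates 1 to 6 (adjusted exact p = 0.189).

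**Figure D5:**
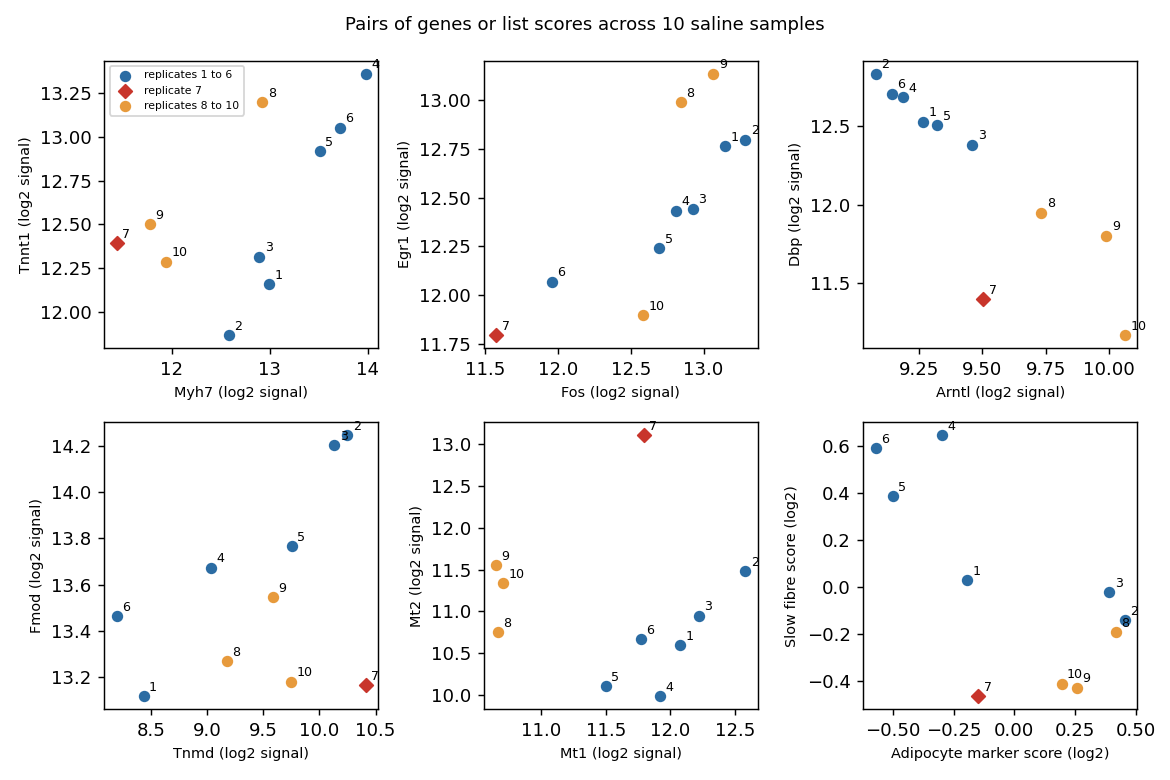
Pairs of genes (log2 signal) or list scores (log2) across the 10 saline samples, numbered by replicate, with replicates 1 to 6 in blue, 7 as a red diamond and 8 to 10 in orange. For Myh7 with Tnnt1 and for Tnmd with Fmod the blue points lie along a line (r = 0.989 and 0.915) that the other samples leave, and for Arntl with Dbp the 2 colour groups do not overlap on either axis.

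The genes most like 7 chosen genes in their pattern over the 10 samples are given by Pearson's r as a description. Myh7 was followed most closely by Myl2 (0.969), Atp2a2 (0.966), Nnt (a mitochondrial transhydrogenase, 0.960), Myl3 (0.959) and Stard7 (a lipid carrier of mitochondria, 0.959). Adipoq was followed by Fah (0.939), Sncg (gamma-synuclein, 0.920), Ppp1r3e (a glycogen-targeting phosphatase subunit, 0.916), Tmem45b (0.914) and Hp (haptoglobin, 0.908). Tnmd was followed by Ndst2, Srsf9, Angptl7, Nsmce2 and Kera (0.882 to 0.892), of which Kera, a proteoglycan, is on the tendon list. Fos was followed by Mau2, Dusp1 (an immediate early phosphatase), Fxyd3, Atp5g1 and Atg7 (0.854 to 0.897). Without replicate 7, the lowest sample for Fos, these r were 0.713 to 0.862. Mt1 was followed by Ang, Sh3bgrl3, Lrp1, Csf1r and Mmp2 (0.964 to 0.975), Dbp by Trnau1ap, Vamp5, Wnt5b, Slc16a9 and Skp1 (0.965 to 0.993) and Irf7 by P3h4, Ptpra, Tmeff2, Egr3 and Nav3 (0.871 to 0.947). Irf7 itself lay below the limit on mean signal, at 4.82 to 7.24 (log2). For the chosen genes other than Fos, r without replicate 7 was 0.820 to 0.995. The patterns of Mt1 and Dbp differ between the array sets, as do those of many genes.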

How the data were processed

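RNA was amplified with a NuGEN kit and hybridised to Affymetrix mouse arrays, per the labels' protocols. The deposited values are signal intensities on a linear scale, summarised by the authors with MAS5 per the submitters' processing notes, with no version. No source used here gives the scaling target or detection calls, and the number of arrays limits the precision. Of 45101 probe sets, 64 were controls, 34945 named 1 gene, 932 several and 9160 none in the platform annotation, and 34741 single-gene identifiers matched RefSeq. The 1 value at or below 0 was set to 0.1 before log2. Array pairs correlated at 0.896 to 0.933, so no sample was a copy of another.

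Differences between array sets were tested with R 4.3.3 and limma 3.58.1 (lmFit, eBayes with an intensity trend, two-sided, Benjamini-Hochberg over 9572 genes, threshold 0.05), after testing on simulated data with 200 changed genes. If samples share a mouse, p-values measure a spread that is partly technical. Relations used 100000 resamples, or exact enumeration in replicates 1 to 6. Python 3.11.15 with numpy 2.4.6, pandas 2.3.3, scipy 1.17.1 and matplotlib 3.10.9 was used.

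Genes were named by rule: the 25 brightest, the 25 most variable, per list the 2 most and the 1 least variable members, both genes of each relation, the 5 genes most like each index gene, the 8 leading genes of each group and the 10 smallest p between array sets. Single members of lists outside this rule (such as Mki67, Lyz2, Mrc1, Fn1, Sox10, Comp and Cd68) were chosen after their values were seen. The samples, lists and tests were chosen with earlier results of these data known. Alternatives tried were array medians centred, quantile normalization, log2(signal + 32), the mean of a gene's probe sets, no shared (_x_at, _s_at) probe sets, other limits on mean signal, array sets centred and leaving out each replicate. Genes without a single-gene probe set are not analysed here.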

Additional observations from a re-analysis of the deposited data

Results flagged for a closer look

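In 50 named genes (the brightest and the most variable) and 22 lists, the gap between the extreme sample and its nearest neighbour was compared with the whole range over the 10 samples, with Dixon's limit. In 8 of these 72 cases the gap was larger than that limit, and in all 8 the extreme sample was replicate 7, as the highest. The gap was 0.775 of the range for Myh3, 0.741 for Dclk1, 0.702 for Ms4a6d, 0.689 for Postn, 0.571 for Tnc and 0.528 for Ccl8. Chance alone gives such a gap in about 5% of unselected cases, but all 6 genes come from the 25 chosen for the largest SD in these samples, for which that rate does not hold. Among the lists it was 0.744 for denervation and regeneration and 0.596 for cell cycle. These scores use the 15 of 19 and 8 of 22 measured genes above the limit on mean signal, of which Myh3 in the former and Mcm6 in the latter pass it only through replicate 7, so they are given as values and not as support. Dclk1, at 2536 in replicate 7 against 96 to 223, was also high in its second probe set, by 3.31 on the log2 scale.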

How the results depend on the processing

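No paired analysis was possible because the 10 samples form a single group. With array medians centred, 4307 genes had an SD of at least 0.5, the list spreads (median SD) rose to 0.373 (fast fibre), 0.460 (oxidative phosphorylation), 0.458 (fatty acid), 0.377 (glycolysis), 0.347 (ribosomal) and 0.400 (proteasome), the array sets gave 395 genes higher and 3800 lower, and r passed the threshold for Myh7 with Tnnt1 (0.816), Fbxo32 with Trim63 (0.761), slow with fast fibre (0.759) and adipocyte with nerve (0.785), while Arntl with Dbp reversed to 0.033. With quantile normalization the spreads were 0.069 (fast fibre), 0.149 (oxidative phosphorylation) and 0.102 (glycolysis), and r no longer passed for Fos with Egr1 (0.728) and Myh2 with Myh4 (0.236). With log2(signal + 32), 73 genes had an SD of at least 1. With the mean of probe sets, 11 of the 25 brightest and 13 of the 25 most variable genes were shared, 76 genes had an SD of at least 1, 733 were lower between array sets, Myh2 with Myh4 reversed to -0.282, Arntl with Dbp fell to -0.402, and adipocyte with slow fibre (-0.815) and with nerve (0.794) passed. Without shared probe sets r passed for Tnmd with Fmod (0.751) and Fbxo32 with Trim63 (0.727) and not for Arntl with Dbp (-0.760). With array sets centred, 1250 and 62 genes had an SD of at least 0.5 and 1, the spreads were 0.130 (oxidative phosphorylation), 0.184 (fatty acid), 0.320 (cell cycle), 0.252 (endothelial) and 0.229 (blood), and r passed for Myh7 with Tnnt1 (0.932), Tnmd with Fmod (0.744), Fbxo32 with Trim63 (0.706), adipocyte with nerve (0.830) and, reversed, Mt1 with Mt2 (0.900). Limits on mean log2 at the median of probe sets and at 8 left 280 and 77 genes with an SD of at least 1, of which 12 and 11 of the 25 most variable were shared. Leaving out each replicate gave 89 to 176 genes with an SD of at least 1 (89 without replicate 7), 13 to 23 shared variable genes, and r of 0.715 to 0.844 (Fos with Egr1), 0.739 to 0.891 (Myh2 with Myh4) and 0.517 to 0.894 (Fbxo32 with Trim63, passing without replicate 2 or 5). The number of co-varying groups was 7 with array medians centred, 7 with quantile normalization and 5 without replicate 7. For these changes the cause was not tested, except that fewer samples, genes or probe sets enter by construction. No relation in replicates 1 to 6 was computed with fewer than 6 samples.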
